A study of Homo sapiens with 11 samples.

Results

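Vorinostat-treated neuroblastoma cultures were compared between a long and a short exposure, 6 d against 24 h. The comparison rests on 5 of the 11 arrays of the series, namely the 2 arrays titled 6d saha and the 3 arrays titled 24h saha, which were chosen by title alone and not by any measured value. Vorinostat (SAHA) was given at 500 nM in both groups, and the solvent was DMSO. The other 6 arrays were of DMSO-treated cells, 3 at 24 h and 3 at 6 d, and are used here only to set the time difference with the drug beside the time difference without it. All RNA came from SK-N-BE(2)-C, a single human neuroblastoma line with an amplified MYCN gene, so that the values stand for 1 line. Whether the medium or the drug was renewed during the 6 d is not given in the sources used here. The methods describe the 24 h arrays as separate experiments, and nothing in the sources used here says so of the 6 d arrays, so that p-values measure the spread between these samples, which may be technical.

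Vorinostat blocks the zinc-dependent histone deacetylases, the enzymes that take acetyl groups off histones and many other proteins. Acetylated histones loosen chromatin, and such inhibitors raise and lower the transcripts of many genes, slow the cell cycle and change autophagy, the delivery of cell contents to the lysosome for breakdown. In neuroblastoma, a tumor of the sympathetic lineage, they are studied for differentiation and cell death.

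Levels below are log2 of the intensity that the authors normalized, for 1 probe per gene, and differences are 6 d minus 24 h on that scale. Because background was not subtracted from these intensities, differences of dim genes are understated. A gene was tested if all arrays of any group detected one of its probes, which left 10323 genes, with limma in a fit of all 11 arrays. The 2 vorinostat groups lay on different BeadChips, and so did the 2 solvent groups of 24 h and 6 d, so that BeadChip and time cannot be told apart in either comparison. Both groups of 6 d shared a chip. RNA was taken from whole cultures, so that a lower level per cell and fewer cells with the transcript cannot be told apart. Before normalization the mean intensity was 401 to 413 on the 24 h vorinostat arrays and 283 and 338 on those of 6 d, and 18302 to 18696 against 16346 and 16841 probes were detected. Neither pair of ranges overlapped (two-sided exact permutation p = 0.1 for each, the smallest that 3 against 2 arrays allow). On the solvent arrays the order was reversed, with a mean intensity of 272 to 302 at 24 h and 323 to 383 at 6 d. There 15947 to 16878 probes were detected at 24 h and 17444 to 18159 at 6 d. The part of these brightness shifts in the results below, with or without solvent beside them, was not tested. Of 12 neuroblastoma markers 10 were tested, and all of them were detected on every array. None of 6 endothelial and none of 7 glial markers passed the filter, while 3 of 8 haematopoietic and 2 of 6 epithelial markers did, with summed intensities of 603 to 645 and 288 to 323 in the 24 h vorinostat arrays and 491 to 536 and 251 to 285 in those of 6 d.

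Between 24 h and 6 d of vorinostat 735 genes rose and 1406 fell at an adjusted p under 0.05 (limma with Benjamini-Hochberg adjustment), which is 7.12% and 13.6% of the genes tested, or 20.7% in either direction. The share of higher against lower calls depended on how the arrays were scaled. Centring the authors' values on array medians gave 950 higher and 1152 lower genes, and background correction with scaling by medians gave 1413 higher and 905 lower. The median difference over all genes was -0.04, and it was 0.09 under the last of these scalings. Without vorinostat 6 d replicate 2 there were 291 higher and 643 lower genes, and without vorinostat 24 h replicate 2 there were 387 and 916, while without 24 h replicate 1 the higher genes numbered 403. Most changes were small, since 22 of the higher and 95 of the lower genes moved more than 2-fold. The arrays of the 2 groups did not overlap in 53.2% of all genes, so that a lack of overlap alone says little about a gene. Of the called genes 40 higher and 141 lower ones had passed the detection filter only through the vorinostat group in which they were brighter, which favors a call.

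With solvent, 1777 genes (17.2%) were higher and 1387 (13.4%) lower at 6 d than at 24 h, 30.7% in either direction. This balance turned with the scaling as well, to 1583 higher and 1597 lower after centring on medians and to 1230 and 1919 after background correction with scaling by medians. The 735 genes that rose with vorinostat included 108 (14.7%) that also rose with solvent and 221 (30.1%) that fell. Of the 1406 genes that fell with vorinostat, 131 (9.32%) also fell with solvent and 447 (31.8%) rose. Array brightness also moved in opposite directions with vorinostat and with solvent, and its part in these calls was not tested. Seen from the other side, 6.08% of the genes that rose with solvent rose with vorinostat as well and 25.2% fell. The difference of the time differences passed the threshold for 1257 genes (12.2%) in favor of vorinostat and for 2029 (19.7%) in favor of solvent, and with the last scaling for 2252 and 1223. The genes called higher had a median level of 8.73 at 24 h and 9.25 at 6 d of vorinostat, beside 9.18 and 9.07 with solvent. For the genes called lower these medians were 8.25 and 7.64 with vorinostat and 7.72 and 7.96 with solvent.

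**Figure D1:**
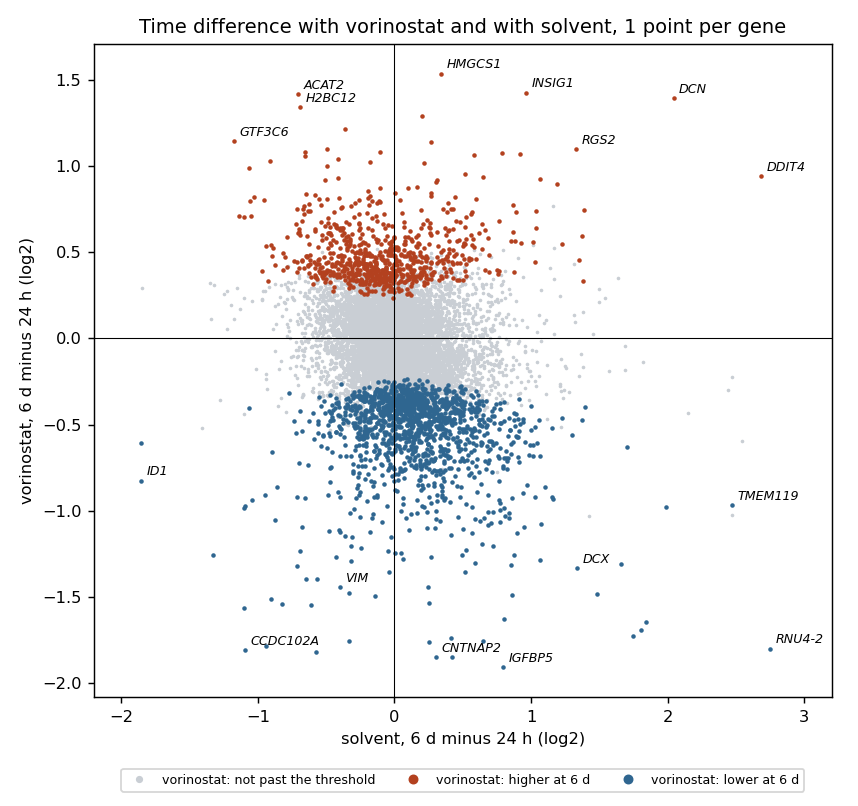
Each point is 1 of the 10323 genes tested, with the log2 difference of 6 d minus 24 h in solvent cultures on the x axis and in vorinostat cultures on the y axis. Red points are the 735 genes higher and blue points the 1406 genes lower at 6 d of vorinostat. Both colors spread over both sides of the vertical line, as with GTF3C6 on the left and DCN on the right.

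Genes of cholesterol synthesis made up a large share of the strongest rises. Cells build sterols from acetyl-CoA along the mevalonate pathway, and SREBP transcription factors, which a sterol-poor membrane releases, drive most of its genes. Of 29 genes on the list 23 were tested. Of these 19 rose (82.6%, beside 7.12% of all genes) and none fell, with a median difference of 0.68 beside -0.04 over all genes. Between 15 and 19 rose under each of 21 limma alternatives and none fell. HMGCS1, which condenses acetyl units to HMG-CoA, rose most of all genes tested. It stood at 10.17, 10.17 and 9.89 on the 24 h arrays and at 11.54 and 11.69 on the 6 d arrays, a difference of 1.54 ± 0.22 (SE, adjusted p = 1.0e-04). INSIG1, a membrane protein that retains SREBP in the endoplasmic reticulum, stood at 8.57, 8.84 and 8.98 and then at 10.23 and 10.22, a difference of 1.42 ± 0.17 (adjusted p = 1.8e-05). Both genes were higher on each 6 d array than on any 24 h array.

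Most starts of the sterol genes hold a sequence feature that the comparison did not use. Windows of 300 bases around the start of transcription were taken from RefSeq (GRCh38.p14), and 20 of the 23 tested genes matched an entry. The box CCAAT, read on both strands and known as the site of the factor NF-Y, which acts together with SREBP at several sterol genes, was present in 16 of these 20 starts (80%) and in 34.6% of all 35116 starts in the table. It was held by 13 of the 16 risen genes among them and by 3 of the 4 that did not pass, so that it did not separate them. The 35116 starts were not limited to genes that were tested here. The classical sterol element in the spelling TCACNCCAC was found in 0 of the 20 and in 1.13% of all, which says only that these letters are not in this window. The windows of HMGCS1, INSIG1 and MSMO1, which hold 2, 1 and 4 copies of the box, are shown 5′ to 3′ with CCAAT or its reverse complement in capitals.
HMGCS1, chr5:43313363-43313662, minus strand: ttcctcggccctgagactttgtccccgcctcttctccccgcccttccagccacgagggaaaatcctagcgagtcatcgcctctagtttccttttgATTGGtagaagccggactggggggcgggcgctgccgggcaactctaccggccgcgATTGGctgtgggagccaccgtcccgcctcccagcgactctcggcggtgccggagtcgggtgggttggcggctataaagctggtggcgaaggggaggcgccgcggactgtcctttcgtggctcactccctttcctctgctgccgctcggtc
INSIG1, chr7:155297628-155297927, plus strand: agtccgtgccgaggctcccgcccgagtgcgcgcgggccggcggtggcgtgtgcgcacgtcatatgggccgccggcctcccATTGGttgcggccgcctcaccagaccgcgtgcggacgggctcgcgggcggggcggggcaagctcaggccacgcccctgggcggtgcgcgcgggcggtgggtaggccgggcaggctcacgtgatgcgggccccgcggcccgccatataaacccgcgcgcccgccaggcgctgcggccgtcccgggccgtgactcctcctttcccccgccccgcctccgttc
MSMO1, chr4:165327419-165327718, plus strand: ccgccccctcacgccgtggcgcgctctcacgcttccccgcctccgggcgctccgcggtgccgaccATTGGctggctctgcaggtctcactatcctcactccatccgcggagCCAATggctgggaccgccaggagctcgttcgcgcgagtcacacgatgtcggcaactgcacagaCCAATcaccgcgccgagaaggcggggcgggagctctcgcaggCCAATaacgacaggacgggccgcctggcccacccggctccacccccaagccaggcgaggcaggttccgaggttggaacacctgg

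The risen genes covered the pathway from its start to its end. ACAT2, which joins the first acetyl units, went from 9.78, 9.78 and 9.94 to 11.22 and 11.28 (difference 1.42 ± 0.24, adjusted p = 4.7e-04). IDI1, the isomerase of the isoprene unit, rose by 1.08, FDPS, which makes farnesyl diphosphate, by 0.83, and MVD, the decarboxylase before them, by 0.84. Of the enzymes that close and trim the sterol ring, LSS rose by 1.01, MSMO1 by 1.08, EBP by 0.77, NSDHL by 0.64 and HSD17B7 by 0.61. DHCR7, which makes the last reduction to cholesterol, rose from 8.09, 8.03 and 7.84 to 9.25 and 9.0 (difference 1.14 ± 0.19, adjusted p = 3.7e-04). The fatty acid enzymes FASN and SCD rose by 0.75 and 0.68, and SREBF1, which encodes SREBP-1, by 0.59. A second, dimmer probe of SREBF1 differed by 0.06 (adjusted p = 0.71), and the dimmest of 3 MSMO1 probes by -0.07 (adjusted p = 0.72). The 4 tested members that did not pass were the kinases MVK (0.07) and PMVK (-0.01), the reductase TM7SF2 (-0.15) and the sterol carrier STARD4 (-0.03).

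With solvent, 9 of the 23 sterol genes rose and 3 fell over the same interval, with a median of 0.27. Over all genes 17.2% rose and 13.4% fell with solvent. The difference between both time differences was called in favor of vorinostat for 10 and in favor of solvent for 3 of the 23. Over all genes these shares were 12.2% and 19.7%. ACAT2 differed most, as it fell by 0.70 with solvent (difference of differences 2.12, adjusted p = 9.7e-05), whereas INSIG1 rose by 0.97 with solvent too (0.46, adjusted p = 0.13). SREBF1 rose more with solvent, by 1.37 (difference of differences -0.78, adjusted p = 0.0025). The median level over the 23 genes was 8.80 at 24 h and 9.42 at 6 d of vorinostat, and 9.18 and 9.02 with solvent. The solvent arrays of 6 d were uneven in these genes. HMGCS1 stood at 10.47 on DMSO 6 d replicate 2 beside 11.43 and 11.59 on the other two, and ACAT2 at 9.73 beside 10.61 and 11.09, and the time differences with solvent include this array.

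**Figure D2:**
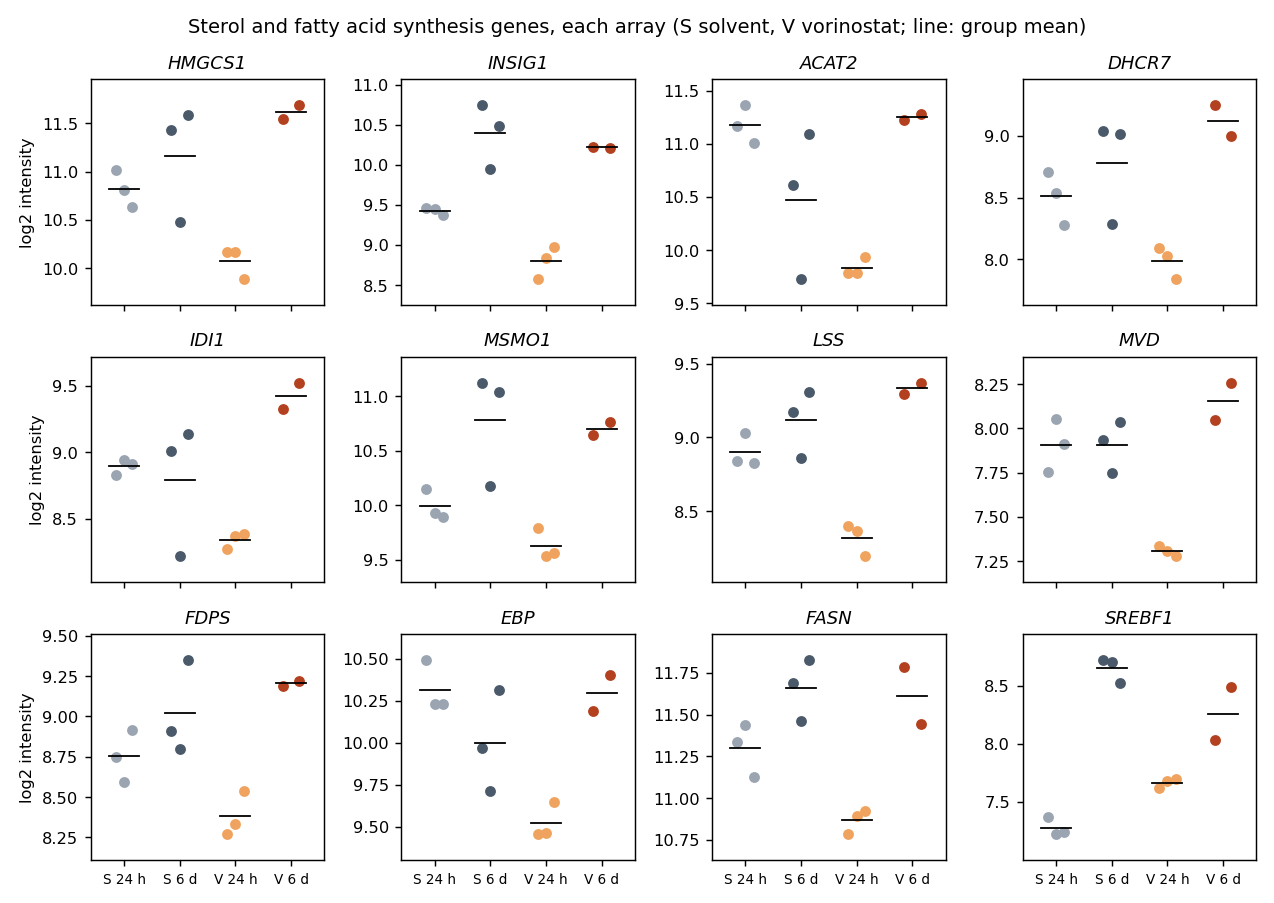
Each point is the log2 intensity of 1 gene on 1 array, for solvent (S, light and dark grey) and vorinostat (V, orange and red) at 24 h and 6 d, and lines are group means. In all 12 panels both 6 d vorinostat arrays lie above the 3 arrays of 24 h. HMGCS1 reaches 11.54 and 11.69 from at most 10.17.

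Among the other largest rises were genes of unlike roles. DCN, a matrix proteoglycan, went from 9.79, 9.58 and 9.67 to 11.14 and 11.01 (difference 1.39 ± 0.13, adjusted p = 2.3e-06), and with solvent it rose by 2.04. RGS2, a brake on G protein signalling, rose by 1.10 with vorinostat and by 1.33 with solvent. For RGS2 the time differences did not differ beyond their spread (-0.23, adjusted p = 0.41). RAMP1, a partner of the calcitonin-like receptor, rose by 1.29 and C12orf57 by 1.21. Several risen genes moved the other way with solvent. GTF3C6, a subunit of the general factor TFIIIC of RNA polymerase III, rose from 8.66, 8.69 and 8.66 to 9.84 and 9.78, a difference of 1.14 ± 0.14, while it fell by 1.18 with solvent. DUSP26, a phosphatase of neuroendocrine cells, rose by 1.10 and fell by 0.49 with solvent. FAIM, an inhibitor of apoptosis, rose by 1.03 and fell by 0.91 with solvent. A dimmer probe of FAIM gave 0.60 (adjusted p = 0.0031) and the dimmest 0.21 (adjusted p = 0.16).

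The deepest fall was that of IGFBP5, a secreted binding protein of insulin-like growth factors. It stood at 10.98, 11.39 and 10.95 at 24 h and at 9.40 and 8.99 at 6 d, a 3.75-fold fall (difference -1.91 ± 0.14, adjusted p = 2.2e-07). With solvent its level was 8.98, 9.19 and 9.02 at 24 h and 9.98, 9.85 and 9.75 at 6 d, so that the solvent arrays of 24 h lay near the vorinostat arrays of 6 d. CD24, a surface glycoprotein of immature cells, showed a like order, with 11.58, 11.80 and 11.45 at 24 h, 10.04 and 9.67 at 6 d (difference -1.75 ± 0.18, adjusted p = 5.0e-06), and 8.71 to 9.39 with solvent at 24 h. PAQR8, a membrane progestin receptor, fell by 1.76, and CTHRC1, a secreted collagen-linked protein, by 1.74. AKR1C3, a reductase of steroids and prostaglandins, fell by 1.82. INAFM1 and CCDC102A fell by 1.85 and 1.81. SAMD11 fell by 1.78, with -0.32 (adjusted p = 0.13) on a dimmer probe. CCDC102A also fell with solvent, by 1.09, and AKR1C3 by 0.58. Of the 9 tested genes of the insulin-like growth factor list 3 fell and 1 rose, 33.3% and 11.1% beside 13.6% and 7.12% of all genes. IGFBP5, IGFBP4 (-0.52) and IGFBP3 (-0.45) fell and IGFBP2 (0.37) rose, and IGFBP4 lost its call in 13 of 21 limma alternatives. IGFBP3 was detected on only 1 of the 2 arrays of 6 d, and its second probe gave -0.09 (adjusted p = 0.59). Its chosen probe had passed the detection filter only through the 24 h vorinostat group.

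Of 30 tested mesenchymal and matrix genes 9 fell and 2 rose (median -0.17), beside 13.6% and 7.12% of all genes. Vimentin, the intermediate filament of mesenchymal cells encoded by VIM, stood at 11.74, 11.99 and 11.75 at 24 h and at 10.53 and 10.24 at 6 d (difference -1.44 ± 0.13, adjusted p = 1.4e-06). With solvent it stood at 10.39 to 10.82 at 24 h and at 10.16 to 10.30 at 6 d, a fall by 0.40. COL5A1, a fibrillar collagen chain, fell by 1.35 to a level that only 1 of the 2 arrays of 6 d detected. S100A10 and ANXA2, which form a complex at the cell membrane, fell by 1.04 and 0.63. The proteoglycan lumican (LUM) fell by 0.98 and the laminin chain LAMC1 by 0.71, whereas with solvent LUM rose by 1.99 and LAMC1 by 0.50. In this list 13 genes rose and 5 fell with solvent, beside 17.2% and 13.4% of all genes. Of the 30 differences of the time differences 18 were called in favor of solvent, beside 19.7% of all genes. DCN, the largest rise of the list, rose in both cultures. POSTN, also higher, had passed the detection filter only through the 6 d vorinostat group.

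Genes of neurons changed in both directions, 4 higher and 10 lower of 44 tested (median -0.10). These are 9.09% and 22.7%, beside 7.12% and 13.6% of all genes. Over the 21 limma alternatives 2 to 8 were higher and 7 to 12 lower, with 2 and 7 without either array of 6 d. Without DMSO 24 h replicate 1 or 3 or vorinostat 24 h replicate 1 or 2 there were also 2 higher. CNTNAP2, an adhesion protein of the axon, fell from 8.46, 8.64 and 8.79 to 6.48 and 7.07, where 1 array no longer detected it (difference -1.85 ± 0.17, adjusted p = 1.6e-06). Doublecortin (DCX), a microtubule protein of migrating neurons, fell from 8.84, 8.90 and 8.69 to 7.33 and 7.62 (difference -1.33 ± 0.22, adjusted p = 3.7e-04), and rose by 1.34 with solvent. NCAM1, a neural adhesion molecule, and GAP43, a growth cone protein, fell by 0.73 and 0.72, and TUBB3, the neuronal tubulin, rose by 0.50. Of 21 tested genes of noradrenergic identity 3 fell and 1 rose, 14.3% and 4.76%, near the shares of all genes. The transcription factors GATA2 (-0.91), TBX2 (-0.83) and HAND1 (-0.63) fell, and INSM2 (0.43) rose. All 4 moved in the same direction with solvent, by -0.95, -0.47, -0.54 and 0.53, and none of their differences of the time differences passed the threshold. MYCN itself stood at 14.39, 14.46 and 14.46 and then at 14.28 and 14.36 (difference -0.12, adjusted p = 0.28).

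Catecholamine and granin genes were called higher in 5 and lower in 3 of 23 tested. The higher share was 21.7%, beside 7.12% of all genes, while the lower share lay near the 13.6% of all genes. Without vorinostat 6 d replicate 2 the counts were 4 higher and 1 lower. They were 3 and 2 without 6 d replicate 3 or 24 h replicate 2, and 4 and 2 without 24 h replicate 3. Tyrosine hydroxylase (TH), the rate-limiting enzyme of catecholamine synthesis, went from 8.56, 8.86 and 9.19 to 9.99 and 9.83 (difference 1.04 ± 0.21, adjusted p = 0.0019). With solvent it stood at 9.71 to 9.83 at 24 h, near its level at 6 d of vorinostat. PCBD1 and PTS, which renew and make the cofactor of this enzyme, rose by 0.81 and 0.35, and SCG5, a granin-like chaperone of secretory granules, by 0.92. The granin SCG2 fell from 13.06, 13.06 and 13.08 to 12.25 and 12.40, and VGF, another secretory granule protein, by 0.71. Other enzymes of the list did not pass, among them DBH, which makes noradrenaline (0.31, adjusted p = 0.13), and DDC, which makes dopamine (-0.07, adjusted p = 0.68).

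**Figure D3:**
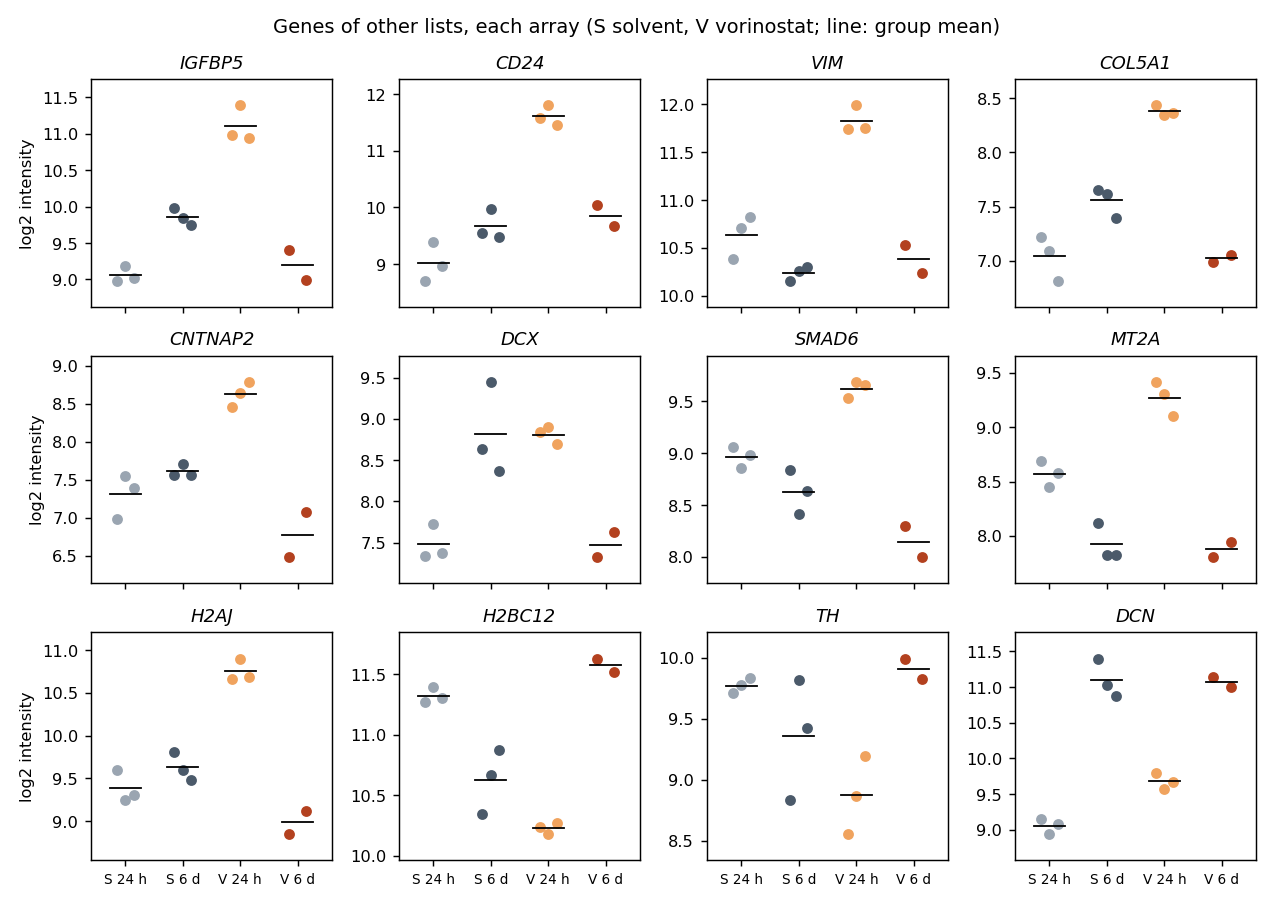
Log2 intensity of 12 genes on each array, for solvent (S) and vorinostat (V) at 24 h and 6 d, with group means as lines. IGFBP5, CD24 and VIM are highest at 24 h of vorinostat and lie between 8.99 and 10.53 at 6 d, while H2BC12, TH and DCN lie higher at 6 d than at 24 h of vorinostat.

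More autophagy genes fell than rose, and most passed in neither direction. Autophagy encloses cargo in a double membrane built by ATG proteins, binds it through receptors that carry an LC3-interacting motif, and ends in the lysosome. Of 17 tested receptors 7 fell and 1 rose (median -0.24), of 34 genes of the autophagosome machinery 4 fell and 1 rose (median -0.15), and of 34 lysosomal genes 9 fell and 1 rose (median -0.15). These are 41.2% of receptors, 11.8% of the machinery and 26.5% of lysosomal genes lower, beside 13.6% of all genes. Over the 21 limma alternatives 2 to 8 receptors, 1 to 7 machinery genes and 4 to 12 lysosomal genes were lower. Without vorinostat 6 d replicate 2 these were 2, 1 and 6, and without vorinostat 24 h replicate 2 they were 3, 3 and 4. Without any other single vorinostat array 4 receptors were lower, and without 6 d replicate 3 or 24 h replicate 1 so were 6 lysosomal genes. Without DMSO 6 d replicate 2 there were 7 lower machinery genes. With solvent, 6 of the 17 receptors rose and none fell, beside 17.2% and 13.4% of all genes.

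The receptor CCPG1, which serves the breakdown of the endoplasmic reticulum, stood at 8.92, 8.93 and 8.70 at 24 h and at 7.66 and 7.95 at 6 d (difference -1.04 ± 0.14, adjusted p = 6.4e-05). Its dimmer probe did not pass (0.08, adjusted p = 0.65). TAX1BP1 and OPTN, receptors of ubiquitin-tagged cargo, fell by 0.54 and 0.53, and OPTN lost its call in 6 of 20 limma alternatives. The mitochondrial receptors BNIP3L, BCL2L13 and FUNDC1 fell by 0.45, 0.38 and 0.38, of which BNIP3L lost its call in 7 and FUNDC1 in 9 of 21 alternatives. A dimmer probe of BNIP3L did not pass (-0.09, adjusted p = 0.65). CALCOCO1, also lower, had passed the detection filter only through the 24 h vorinostat group. It lost its call after background correction with quantile or median scaling, and its sign turned in 1 of 20 limma alternatives. SQSTM1, which encodes the receptor p62, was the only receptor that rose. It went from 10.17, 9.96 and 10.29 to 10.70 and 10.76 (difference 0.59 ± 0.13, adjusted p = 0.0036), with solvent levels of 10.62 to 10.92 at 24 h and 10.49 to 10.89 at 6 d.

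GABARAPL1 and MAP1LC3A, which encode ubiquitin-like proteins of the LC3 family that coat the growing membrane, did not pass the threshold. GABARAPL1 stood at 7.5, 7.67 and 7.61 and then at 7.5 and 7.38 (difference -0.15, adjusted p = 0.36). MAP1LC3A stood at 9.69, 9.47 and 9.48 and then at 9.13 and 9.28 (difference -0.34, adjusted p = 0.074). Both rose with solvent, by 0.73 and 1.23, and both differences of the time differences were called (-0.88 and -1.57, adjusted p = 2.3e-04 and 6.0e-06). WIPI1, which binds the lipid of the forming membrane, was detected on all 24 h arrays and on no 6 d array. Its level fell at least 1.18-fold (measured means 6.97 and 6.63), and it had passed the detection filter only through the 24 h group. WIPI1 lost its call under background correction with scaling by medians and without vorinostat 24 h replicate 2, among other settings. ATG10 and ATG4C, enzymes of the conjugation of ATG12 and of LC3, fell by 0.65 and 0.56, the scaffold RB1CC1 by 0.52, and the lipid scramblase TMEM41B rose by 0.55. The kinase ULK1 differed by 0.26 (adjusted p = 0.19) and the transcription factor FOXO3 by 0.19 (adjusted p = 0.51), while FOXO1 and TFEB were not tested.

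In the lysosome, the protease cathepsin H (CTSH) fell from 8.69, 8.64 and 8.74 to 7.48 and 7.70 (difference -1.09 ± 0.12, adjusted p = 7.8e-06), with -0.16 (adjusted p = 0.26) on a dim second probe. NPC2, which hands cholesterol out of the lysosome, fell from 9.28, 9.34 and 9.46 to 8.39 and 8.49 (difference -0.92 ± 0.11, adjusted p = 2.3e-05). PSAP, the precursor of the saposins, fell by 0.72, cathepsin B (CTSB) by 0.54, LGMN by 0.47 and the acid lipase LIPA by 0.42. LAMP2 fell by 0.52 on its brightest probe and by 0.41 on the next, while its 4 dimmer probes gave -0.27 to -0.04 and did not pass. The exception was the arylsulfatase ARSB, with a rise of 0.60 that its dimmer probe did not share (-0.08, adjusted p = 0.67). CTSH, NPC2 and PSAP rose with solvent, by 0.95, 1.15 and 0.57.

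**Figure D4:**
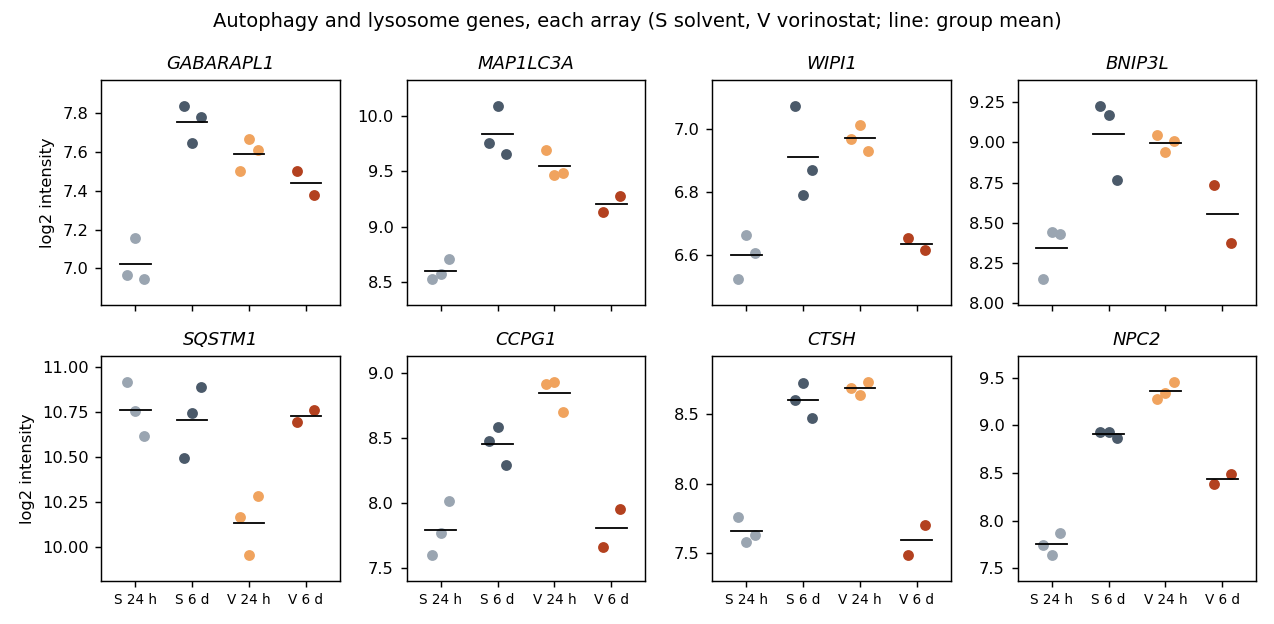
Log2 intensity of 8 genes on each array, for solvent (S) and vorinostat (V) at 24 h and 6 d, with group means as lines. CCPG1, CTSH and NPC2 fall between 24 h and 6 d of vorinostat and rise between the same times with solvent, where NPC2 goes from at most 7.87 to at least 8.86.

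Of the drug's targets, HDAC1 stood at 10.34, 10.26 and 10.32 and then at 10.14 and 10.27, and HDAC2 at 12.01, 12.16 and 12.18 and then at 12.02 and 12.05. Neither passed the threshold (adjusted p = 0.55 and 0.58). Of 20 tested deacetylases and corepressors SIN3A (-0.50) and HDAC6 (-0.34) fell and RCOR2 (0.55) rose, and HDAC6 lost its call in 16 of 21 alternatives. The 10% lower and 5% higher lay near the 13.6% and 7.12% of all genes. Among histone genes the replacement variant H2AJ fell from 10.67, 10.90 and 10.68 to 8.85 and 9.12 (difference -1.76 ± 0.13, adjusted p = 2.2e-07). H2BC12 rose from 10.24, 10.18 and 10.27 to 11.63 and 11.52 (difference 1.34 ± 0.12, adjusted p = 1.7e-06) and fell by 0.69 with solvent. The variant MACROH2A2 rose by 0.78. In all 3 of 26 tested histone genes rose and 4 fell, 11.5% and 15.4% beside 7.12% and 13.6% of all genes. Without vorinostat 6 d replicate 2 or 24 h replicate 2 there were 2 and 1, and 2 fell without 24 h replicate 1 or 6 d replicate 3. Among the lower genes H2BC8 had passed the detection filter only through the 24 h vorinostat group. CDKN1A, the p21 inhibitor of cyclin kinases, differed by -0.22 (adjusted p = 0.40), and GADD45A, a stress gene of growth arrest, rose by 0.81. GADD45A rose by 0.60 with solvent too, and its time differences did not differ beyond their spread (0.21, adjusted p = 0.31). PHF19, a subunit of the silencing complex PRC2, rose by 0.99 and fell by 1.06 with solvent.

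Of 9 listed metallothioneins, small proteins that bind zinc and copper, 3 were tested. MT2A went from 9.42, 9.30 and 9.10 to 7.81 and 7.95 (difference -1.40 ± 0.13, adjusted p = 2.1e-06). MT1X went from 8.56, 8.42 and 8.59 to 7.64 and 7.31 (difference -1.05 ± 0.15, adjusted p = 9.0e-05), while MT1F was detected on every 24 h array and on no 6 d array, at least 1.26-fold apart. MT1F had passed the detection filter only through that 24 h group. Without the filter 8 metallothioneins had a median of -0.04 and 3 were lower. MT2A and MT1X fell with solvent too, by 0.65 and 0.88, and for MT1X the time differences did not differ beyond their spread (-0.17, adjusted p = 0.54). Metallothionein genes are switched on by zinc through metal response elements, with a core of TGCACNC or TGCGCNC. The RefSeq start of MT1X held 4 copies of this core on both strands and that of MT2A 8, while 29.6% of all starts held at least 1 and 0.601% held 4 or more. The window of MT2A (GRCh38.p14) is shown with the cores in capitals, as the member with most copies.
MT2A, chr16:56608334-56608633, plus strand: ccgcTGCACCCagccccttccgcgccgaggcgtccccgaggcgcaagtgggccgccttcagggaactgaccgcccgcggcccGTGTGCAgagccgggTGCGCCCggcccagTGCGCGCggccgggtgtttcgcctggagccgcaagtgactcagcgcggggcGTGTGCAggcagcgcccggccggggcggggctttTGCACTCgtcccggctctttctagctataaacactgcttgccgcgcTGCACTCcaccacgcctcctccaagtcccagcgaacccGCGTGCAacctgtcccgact

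Of 24 tested heat shock chaperones 8 rose and 2 fell (median 0.15), 33.3% and 8.33% beside 7.12% and 13.6% of all genes. Without vorinostat 6 d replicate 2 only 2 rose and 0 fell, and 5 rose without 6 d replicate 3, 24 h replicate 1 or 24 h replicate 3. The co-chaperone FKBP4 went from 8.83, 8.85 and 9.15 to 9.65 and 9.78 (difference 0.77 ± 0.14, adjusted p = 9.3e-04), the inducible HSP70 gene HSPA1A rose by 0.48 and its partner DNAJA1 by 0.44. BAG3, a co-chaperone of HSP70, fell by 0.74. In the endoplasmic reticulum the chaperone HSPA5 and the stress sensor ATF6 fell by 0.51 and 0.62, among 4 lower and 1 higher of 26 tested genes, 15.4% and 3.85%, near the shares of all genes. Only 2 were lower without 24 h replicate 1 or 6 d replicate 2 of vorinostat. Of 39 tested MYC targets and ribosome biogenesis genes 6 rose and 1 fell (median 0.18), 15.4% and 2.56% beside 7.12% and 13.6% of all genes. With solvent none of them rose and 23 fell, beside 17.2% and 13.4% of all genes. Over the 21 limma alternatives 4 to 11 rose, with 11 under scaling by medians. Without vorinostat 24 h replicate 1 or 2 or either 6 d replicate 4 rose, and so did 4 without DMSO 24 h replicate 1 or 3. The spermidine synthase SRM rose from 9.20, 9.17 and 9.36 to 9.87 and 10.14, the translation factor EIF5A by 0.79, the ribosome assembly factor MRTO4 by 0.64 and NOP2, a ribosomal RNA methyltransferase, by 0.57. A dimmer probe of NOP2 gave 0.25 (adjusted p = 0.098) and the dimmest 0.52 (adjusted p = 0.012). For 18 of the 39 genes the difference of the time differences was called in favor of vorinostat and for none in favor of solvent. Over all genes these shares were 12.2% and 19.7%.

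Genes of DNA replication were called as often in each direction, 4 higher and 4 lower of 41 tested (median 0.06). This is 9.76% each way, beside 7.12% higher and 13.6% lower of all genes. With solvent 24 fell and 1 rose, beside 13.4% and 17.2% of all genes. Without vorinostat 6 d replicate 2 none rose and 3 fell, and 1 rose without 24 h replicate 2. Thymidylate synthase (TYMS) rose from 10.51, 10.32 and 10.42 to 11.21 and 11.04 (difference 0.71 ± 0.15, adjusted p = 0.0033) and fell by 1.14 with solvent. The helicase subunit MCM5 rose by 0.48 and fell by 0.90 with solvent. GINS4, a helicase partner, fell by 0.80 and RPA3, which binds single-stranded DNA, by 0.70. Of 48 mitosis genes 10 fell and 1 rose (median -0.25), 20.8% and 2.08% beside 13.6% and 7.12% of all genes. The lower ones numbered 3 to 20 over the 21 limma alternatives, with 3 without vorinostat 6 d replicate 2, 5 without vorinostat 24 h replicate 2 and 20 without DMSO 6 d replicate 2. They were led by the phosphatase CDC25C (-0.92), the spindle protein HMMR (-0.84), the centromeric histone CENPA (-0.59) and the topoisomerase TOP2A (-0.58). With solvent 17 of the 48 fell and 1 rose, and CDC25C, HMMR, CENPA and TOP2A were not among them. Over all genes 13.4% fell and 17.2% rose with solvent.

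The ATF4 response, which raises amino acid synthesis and uptake under nutrient stress, had 6 higher and 1 lower of 32 tested genes, beside 18 higher and none lower with solvent. The shares with vorinostat were 18.8% and 3.1%, beside 7.12% and 13.6% of all genes. With solvent the shares of all genes were 17.2% and 13.4%. Without 24 h replicate 1 or 2 or either array of 6 d of vorinostat only 2 were higher. DDIT4, an inhibitor of mTORC1, rose from 8.44, 8.19 and 8.60 to 9.33 and 9.37 with vorinostat (difference 0.94 ± 0.23, adjusted p = 0.0083) and by 2.68 with solvent. The serine enzyme PSAT1 rose by 0.63, CBS, which condenses serine with homocysteine, by 0.60 and the arginine transporter SLC7A1 by 0.52. Of 42 tested genes of glycolysis and the hypoxia response 18 rose and 7 fell with solvent, beside 17.2% and 13.4% of all genes. With vorinostat 6 of the 42 fell and none rose. The 14.3% lower lay near the 13.6% of all genes, and 4 to 10 were lower over the 21 limma alternatives. P4HA2, a collagen prolyl hydroxylase, fell by 1.00, the oxygen sensor EGLN3 by 0.71, and the glucose transporter SLC2A3 by 0.60. P4HA2 and SLC2A3 rose with solvent, by 0.77 and 0.86.

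A list of ID, HES and E protein genes, other factors of the same helix-loop-helix family, BMP ligands and inhibitory SMADs had 6 lower and 2 higher of 15 tested. These are 40% and 13.3%, beside 13.6% and 7.12% of all genes. Without vorinostat 6 d replicate 3 there were 3 and 1, and without 24 h replicate 1 or 6 d replicate 2 the lower genes numbered 4. HES4 (lower) and NEUROG2 (higher) had passed the detection filter only through the vorinostat group in which they were brighter. SMAD6, an inhibitor of BMP receptors, fell from 9.53, 9.69 and 9.65 to 8.29 and 8.0 (difference -1.48 ± 0.13, adjusted p = 1.4e-06). HEY1, a Notch target, fell by 0.88, with -0.17 (adjusted p = 0.39) on a dim second probe. ID1 and ID2, which sequester E proteins, fell by 0.83 and 0.61, less than with solvent, where they fell by 1.86 and 1.85 (difference of differences 1.03 and 1.25, adjusted p = 0.012 and 4.3e-04). Of the BCL2 family and caspases 4 rose and 4 fell of 23 tested, 17.4% each way beside 7.12% and 13.6% of all genes. BID, which links caspases to mitochondria, rose by 0.84, and BCL2L12 and the mitochondrial protease HTRA2 fell by 1.08 and 0.92. The dimmest probe of BID (0.05, adjusted p = 0.84) and a second probe of HTRA2 (-0.15, adjusted p = 0.52) did not pass. In antigen presentation by MHC class I, beta-2-microglobulin (B2M) fell by 0.43 and the interferon-induced ISG15 at least 1.72-fold to below detection. They were among 3 lower (23.1%) and no higher genes of 13 tested, beside 13.6% and 7.12% of all genes. HLA-E, also lower, had passed the detection filter only through the 24 h vorinostat group.

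**Figure D5:**
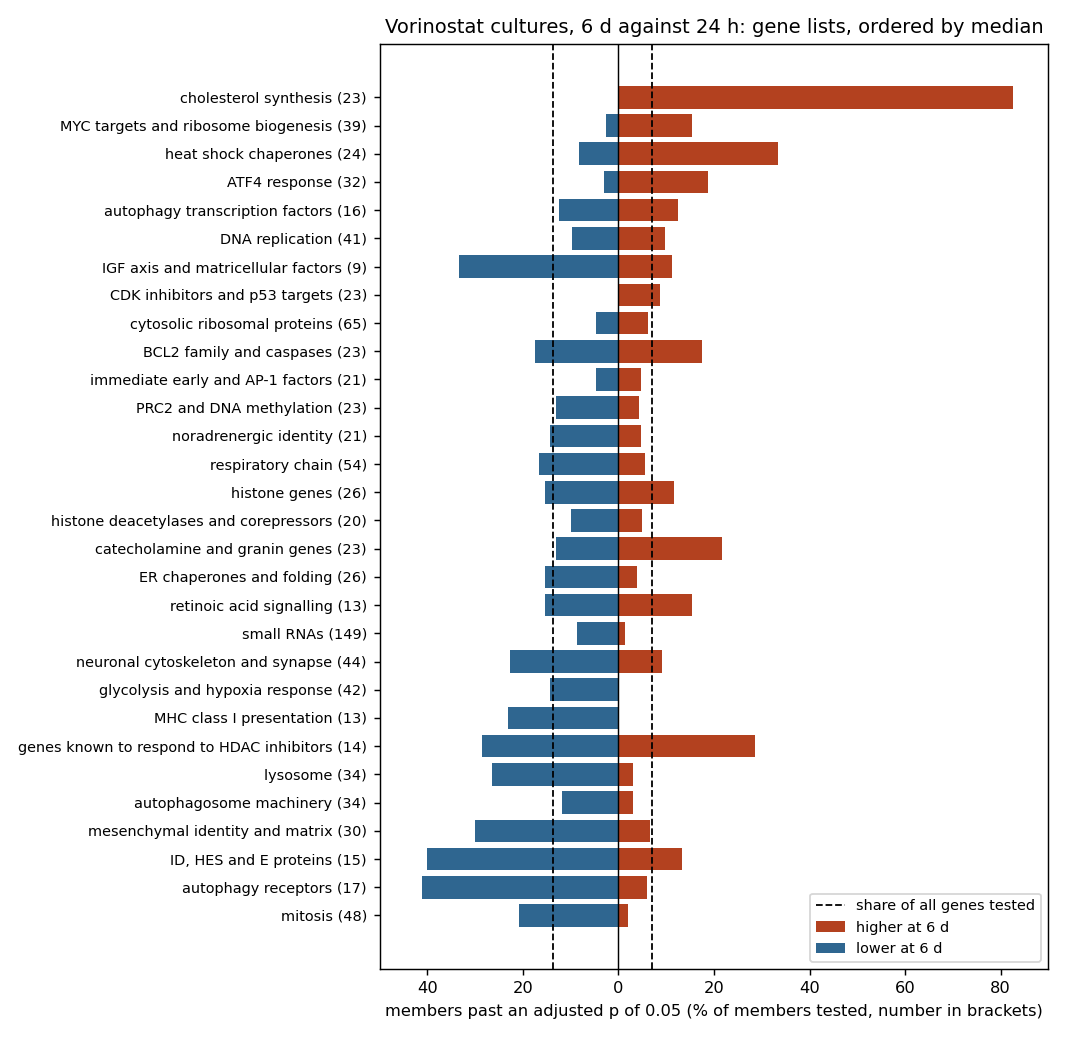
Bars give, for each list with 9 or more tested members, the percent called higher (red, right) and lower (blue, left) at 6 d against 24 h of vorinostat, with the number tested in brackets. Dashed lines mark the shares over all genes, 7.12% and 13.6%. Cholesterol synthesis stands at 82.6% higher and autophagy receptors at 41.2% lower.

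Probes for small RNAs of the spliceosome gave a high signal at 24 h of vorinostat and a lower one at 6 d. Of 149 tested small RNAs 13 were lower and 2 higher, 8.72% and 1.34%, beside 13.6% and 7.12% of all genes, and the largest falls were those of spliceosomal RNAs. RNU2-1 (lower) and SNORA29 (higher) had passed the detection filter only through the vorinostat group in which they were brighter. RNU4-2 stood at 10.60, 11.21 and 10.90 at 24 h and at 9.28 and 8.92 at 6 d (difference -1.80 ± 0.50, adjusted p = 0.017). RNU1-3, RNVU1-18, RNVU1-7 and RNU1-1, near-identical copies of the U1 RNA whose probes may not tell them apart, fell by 1.73, 1.69, 1.65 and 1.31, and RNU6-1 by 1.03. RNY4, a small RNA bound by the Ro protein, fell by 1.15. The solvent arrays moved the other way and varied widely, with RNU4-2 at 8.21, 8.34 and 8.58 at 24 h and at 10.81, 12.81 and 9.76 at 6 d. The paper isolated total RNA with the RNeasy MiniKit, and whether RNAs this short were recovered evenly from each sample was not tested. The lower small RNAs numbered 2 to 31 over the 21 limma alternatives, with 2 without vorinostat 6 d replicate 2, 6 without vorinostat 24 h replicate 2, and 25 and 21 without DMSO 6 d replicate 2 and 3. RNU4-2 and RNU1-1 lost their call in 3 of these alternatives and RNU6-1 in 4. Scaling by medians gave 9 lower and 9 higher small RNAs. Over all 10323 genes this scaling moved the calls from 735 higher and 1406 lower to 1413 and 905. The respiratory chain went from 3 higher and 9 lower of 54 (5.56% and 16.7%) to 6 and 1. Cytosolic ribosomal proteins went from 4 higher and 3 lower of 65 (6.15% and 4.62%) to 24 and 2. Before this scaling the shares of all genes were 7.12% and 13.6%. The histone genes went from 3 higher and 4 lower to 6 and 2, the deacetylases and corepressors from 1 and 2 to 2 and 1, the neuronal genes from 4 and 10 to 8 and 9, and MHC class I genes from 0 and 3 to 2 and 2. Of the respiratory and ribosomal genes, NDUFA6 (0.66) rose and NDUFB3 (-0.62) and RPS7 (-0.83) fell in each of 21 alternatives, but a second bright probe of NDUFB3 gave -0.25 (adjusted p = 0.082).

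Some genes crossed the limit of detection. On all 24 h arrays and on no 6 d array were 185 of the 1406 lower genes detected, and 32 of the 735 higher genes were detected only on both arrays of 6 d. Over all 10323 genes tested these numbers were 473 and 67. Fewer probes were detected on the 6 d vorinostat arrays (16346 and 16841) than on those of 24 h (18302 to 18696). The part of this in these counts was not tested. HAMP, the iron hormone hepcidin, stood at 7.97, 8.66 and 8.39 and then at 6.77 and 6.83, and fell at least 2.91-fold (adjusted p = 5.9e-06). SCGN, a calcium binding protein of neuroendocrine cells, fell at least 2.12-fold. MMP9, a matrix protease, HBA2, a globin, and ACVRL1, a receptor of BMP9, each fell at least 2.04-fold, of which HBA2 had passed the filter only through the 24 h vorinostat group, and SERPINE2, a protease inhibitor, at least 1.98-fold. MMP9 was measured at 7.73 to 7.81 at 24 h and at 6.48 and 6.43 at 6 d, with 6.43 to 6.61 and 7.26 to 7.52 in the solvent arrays of 24 h and 6 d. The bounds of rising genes were smaller. PDPR, MASP2, SLC66A1LP, IL2RA, GSDMA and CXCL8 were at least 1.40-, 1.37-, 1.36-, 1.34-, 1.30- and 1.29-fold higher. All 6 had passed the filter only through the 6 d vorinostat group, so that their calls are partly fixed by it, and CXCL8 lost its call in 11 of 20 limma alternatives. A bound sets the mean of the bright group against the lowest signal among detected probes on each array of the dim group, or against the measured value there if it exceeded that signal.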

How the data were processed

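RNA of SK-N-BE(2)-C cells was measured on 11 Illumina BeadChip arrays. The authors deposited non-normalized intensities with a detection p-value per probe, and a table of intensities normalized with BeadStudio, whose method and genome build are not given in the sources used here. No column of other samples was present (0). The medians of the normalized arrays were 106.53 to 112.28, so that background was still in them. The 2 tables carry different probe identifiers, and all 48107 probes were paired by their values over the arrays (2.667% by shuffled values). In the annotation of the platform 30113 probes had 1 gene, 8 had several and 17986 had no gene, and 30074 were matched by Entrez number to RefSeq.

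A probe was detected with a deposited p-value under 0.01 and an intensity above the median of probes with a p-value above 0.9. Of 17052 probes detected on every array of a group, 13553 named 1 gene, and the brightest stood for each of 10323 genes (2626 had several). Log2 of the authors' normalized intensities (2 zeros set to the lowest positive value) was fitted with lmFit and eBayes with trend in limma 3.58.1 (R 4.3.3), with 4 group means and Benjamini-Hochberg adjustment at 0.05. The steps were tested on simulated data. Replicates were the numbers in the titles. Tables and figures used Python 3.11.15, pandas 2.3.3 and Matplotlib 3.10.9. Precision is limited by how few arrays there are.

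The lists and the genes to be named were chosen with earlier results of these data known. Named were the 12 largest called differences in each direction among genes detected on all 5 vorinostat arrays without overlap, the 6 largest bounds in each direction, up to 4 called members of each list and any member whose role a sentence needed, a set of genes of autophagy and the drug's targets whatever their values (1 of them is not reported here), and the 6 largest differences of the time differences in each direction. Alternatives were normexp background correction (offset 16) with quantile or median scaling, other scalings and filters, the mean of a gene's probes, the replicate number as a block, no trend, only the arrays compared, the methods' analysis of variance, and leaving out each array.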

Additional observations from a re-analysis of the deposited data

Results flagged for a closer look

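The time difference with vorinostat differed from that with solvent, by a limma test of the difference itself, in favor of vorinostat for 1257 genes and in favor of solvent for 2029. Scaling by medians turned this balance to 2252 and 1223. Among named genes, the difference of the time differences (log2) was 2.32 for GTF3C6, 2.12 for ACAT2, 2.05 for PHF19, 2.03 for H2BC12, 1.94 for FAIM and 1.85 for PCOLCE, which processes procollagen. Each of these 6 genes rose with vorinostat and fell with solvent between 24 h and 6 d. In favor of solvent it was -4.55 for RNU4-2, -3.49 for RNVU1-18, -3.49 for RNVU1-7, -3.48 for RNU1-3, -3.44 for TMEM119 and -2.96 for RNU1-1, all of which fell with vorinostat and rose with solvent. TMEM119, a membrane protein of bone and microglia, stood at 8.99, 9.13 and 8.83 at 24 h and at 8.02 and 8.0 at 6 d of vorinostat, and at 7.28, 7.62 and 7.35 and then at 9.81, 10.45 and 9.42 with solvent. The 24 h groups of vorinostat and solvent lay on separate BeadChips, so that chip and drug cannot be told apart at that time in these differences. Between 24 h and 6 d the brightness of the arrays fell with vorinostat and rose with solvent, and its part in these differences was not tested. No group held 4 or more arrays, so that none was examined for a single array far from the rest.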

How the results depend on the processing

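Without 1 array at a time, the higher genes of the vorinostat comparison numbered 291 to 858 and the lower 643 to 1572, with the fewest without vorinostat 6 d replicate 2 (291 and 643), and 387 and 916 without vorinostat 24 h replicate 2 and 403 higher without replicate 1. For solvent the ranges were 1349 to 1850 and 977 to 1443, and for the difference of the time differences 965 to 1362 and 1540 to 2149. Background correction with scaling by medians gave 1413 higher and 905 lower genes with vorinostat, and 2252 and 1223 for the difference of the time differences, in place of 1257 and 2029. The methods' analysis of variance, after adjustment, gave 31 higher and 97 lower genes with vorinostat (1134 and 1854 unadjusted) and 324 and 214 with solvent. With the replicate number as a block the vorinostat counts were 775 and 1456, the solvent counts 1967 and 1569 and those of the difference 1360 and 2145. Same-numbered arrays of both vorinostat groups deviated together from their group means (r across genes 0.294 and 0.241). With 2 arrays at 6 d these deviations mirror each other, so that the 2 values are not independent. They do not establish that the numbers pair the samples. The other settings that kept all arrays gave counts within 1.5 times those reported. Of the 142 called named genes 87 kept their call in all 21 limma alternatives, 55 lost it in at least 1 and 0 turned direction. These 142 do not include members named only because a sentence needed their role. Among those, CALCOCO1 turned sign in 1 of 20 limma alternatives. The number of arrays, 3 and 2, and signal near background limit what could be detected.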
